A study of Macaca fascicularis with 28 samples.

Results

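Lingual epithelium (LE) that carries no taste buds was compared between the posterior and the anterior tongue of the cynomolgus macaque (Macaca fascicularis). Posterior LE was cut beside circumvallate (CV) papillae and anterior LE beside fungiform (FG) papillae, and samples were assigned to a site by the papilla type in their labels. There were 10 such samples among the 28 of the study, 4 posterior and 6 anterior. They came from 6 animals aged 2.6 to 4.5 years, 2 males and 4 females, and the labels give neither a treatment nor an altered gene for any of them. Animals 1, 3, 4 and 5 gave both sites, and animals 2 and 6 gave anterior LE only. Each sample was a pool of laser-captured areas from many sections of 1 animal, its RNA was amplified, and it was read on a single rhesus macaque array. The array was thus designed for a related species. A pool measures RNA per sample, so fewer cells of a type and less RNA per cell cannot be told apart.

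The dorsal tongue is covered by stratified squamous epithelium. Basal cells divide, and the cells above them change their keratins as they move outward: KRT4 and KRT13 are typical of moist surfaces, and KRT1 and KRT10 of surfaces that cornify as epidermis does. The anterior tongue and the tongue root also differ in embryonic origin, and genes of the pharyngeal region, such as PAX1 of the pharyngeal pouches, are used in development to pattern endoderm. CV papillae are served by von Ebner glands, whose ducts open into the papilla trench.

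The captured tissue had the markers of this epithelium at both sites. KRT13 read 17369, 16899.6, 17233 and 16227 units in posterior LE of animals 1, 3, 4 and 5, and 15794, 16845 and 17175 units at the lowest, the median and the highest of the 6 anterior samples. Posterior values below keep that animal order, and anterior values keep that order of lowest, median and highest. KRT4 read 13039, 11019, 13793 and 13638 units against 13334, 14548 and 15388. The groups overlapped for both keratins. IVL, the envelope precursor involucrin, read 900.4 to 1815 units in posterior and 888 to 3229 units in anterior samples, and TMPRSS11E, an epithelial serine protease, read 2041 to 4012 and 116 to 3800.4 units. KRT5 and KRT14 were looked for but carried no named probe set. The taste cell genes GNAT3 and GNG13 stayed at or below 34.5 units in every LE sample, whereas their means in taste buds were 1918 and 4390 units in CV and 3316 and 4258 units in FG papillae.

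From 37.4 to 40.6% of the array had an intensity of 25 units or more in these 10 samples. The study used that level as the minimum mean intensity in taste buds, and here it marks values that are taken as dim. The log2 values of pairs of arrays correlated at 0.806 to 0.916 within posterior LE, 0.736 to 0.845 within anterior LE and 0.705 to 0.839 between the sites. One sample stood apart: anterior LE of animal 3 held skeletal muscle RNA, with a summed muscle list level of 45211 units against 2276 to 3880 units in the other anterior samples. Posterior LE of animal 1 correlated at 0.806 to 0.845 with the other posterior samples, which correlated with each other at 0.914 to 0.916. Results are given with and without these samples where they rest on them.

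PAX1, a paired-box transcription factor of pharyngeal endoderm and the sclerotome, had the largest called difference between the sites. It read 6763, 8148, 7477 and 8095 units in posterior LE and 9.14, 17.9 and 40.9 units in anterior LE. Every posterior sample stood far above every anterior sample, and all but 1 of the anterior values lay under 25 units. With values under 25 raised to 25, the ratio of the group means on the log2 scale was at least 280.0-fold. The mean difference within the 4 animals was 8.53 ± 0.41 (SE) on the log2 scale, with an adjusted p of 0.01306 in the limma fit that held the animal as a fixed block. A second PAX1 probe set was dim, at 23.5 to 62.4 units in posterior LE, and its log2 difference was 0.95 (adjusted p = 0.3344).

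CLDN10 encodes a claudin that forms ion-selective pores in tight junctions. Its levels were 2355, 1855, 1437 and 2411 units in posterior LE against 5.74, 8.56 and 13.0 units in anterior LE. No anterior sample reached 25 units, so the posterior level was at least 78.9-fold higher. The probe set passed the filter on low values only through the posterior samples. The paired log2 difference was 7.86 ± 0.34 (adjusted p = 0.01306).

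PCK1, the cytosolic enzyme that commits oxaloacetate to gluconeogenesis, read 1682, 1441, 505 and 524 units in posterior LE and 4.67, 8.01 and 49.4 units in anterior LE. Posterior animals 1 and 3 were higher than animals 4 and 5, and all of them were above the anterior range. The paired log2 difference of 6.02 ± 0.48 did not pass the threshold (adjusted p = 0.09047). With the animal as a random block, which also uses the anterior samples of animals 2 and 6, it was 6.42 ± 0.62 (adjusted p = 0.001124). The second PCK1 probe set gave 243 to 956 units against 5.18 to 13.8 units.

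KRT1, a type II keratin of cornifying epidermis, ran the other way. Posterior LE read 83.5, 12.2, 33.1 and 16.8 units, and anterior LE read 169.9, 3453 and 6312 units. The groups did not overlap, but the anterior samples were spread widely, and those of animals 5 and 6 read only 239.8 and 169.9 units. The level was at least 43.2-fold lower in posterior LE. The paired log2 difference was -6.13 ± 0.72 (adjusted p = 0.112), and with the random block it was -5.86 ± 1.08 (adjusted p = 0.04179). That call was lost without the posterior sample of animal 3, 4 or 5, without the anterior sample of animal 1, 2, 3 or 4, and with the muscle level as a covariate (adjusted p = 0.1118); the highest adjusted p on leaving out a sample was 0.1726.

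**Figure D1:**
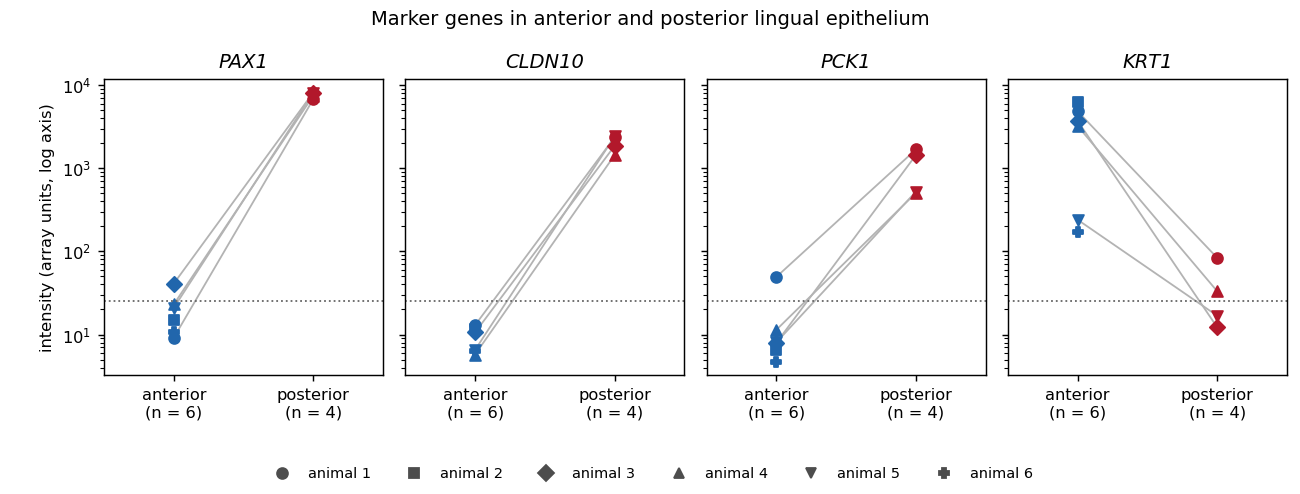
Intensity of PAX1, CLDN10, PCK1 and KRT1 in each LE sample on a log axis, with anterior samples in blue, posterior samples in red, 1 symbol for each animal, grey lines joining the sites of 1 animal and a dotted line at 25 units. PAX1, CLDN10 and PCK1 are above the anterior range in all 4 posterior samples, and KRT1 is below it, with the anterior samples of animals 5 and 6 nearest to the posterior ones.

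Across the 21761 probe sets tested, the paired fit called 3 higher in posterior LE (0.0138% of those tested) and 0 lower (0%), although 3514 had an unadjusted p of at most 0.05. Besides PAX1 and CLDN10 the third was a probe set without a gene name, MmugDNA.592.1.S1_at, at 613, 879, 119 and 511 units against 4.43 to 18.2 units (paired log2 difference 5.55, adjusted p = 0.04616), and it too passed the filter only through the posterior samples. The methods' t-test after Benjamini-Hochberg called none in either direction, with 3063 at an unadjusted p of at most 0.05. Leaving out any of the 4 animals left no call.

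The random-block fit called 129 probe sets higher (0.593%) and 20 lower (0.0919%) in posterior LE. Of the 129, 87 carried a gene symbol, and 128 did not overlap between the groups. Over all tested probe sets, 727 (3.34%) were higher and 432 (1.99%) were lower in posterior LE with no overlap. All 129 were higher in each of the 4 animals that gave both sites, and all 20 were lower in each. For the 128 of the 129 and the 19 of the 20 with no overlap this had to be so, and it is no separate support. There were 24 of the 129 that passed the filter on low values only through the 4 posterior samples, and these had to differ. Over all tested probe sets, called or not, 33 passed in this way. The split between higher and lower calls moved with the scaling: it was 36 to 14 with each array centred on its median and 80 to 34 after quantile normalization.

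The number of calls rested on single samples. Without the posterior sample of animal 3, 4 or 5 the random-block fit called 15, 13 and 12 probe sets higher and 1, 2 and 1 lower. Without that of animal 1 it called 96 and 11. Leaving out the anterior sample of animal 1 gave 83 and 9, of animal 4 54 and 3, and of animal 5 188 and 43. Without the muscle-containing anterior sample of animal 3 there were 106 higher and 22 lower calls, and with the muscle level as a covariate 43 and 8. PAX1, PCK1, PLAC8 and IFNAR2 were called in all 14 alternatives of this fit. CLDN10, SPP1 and SPMIP3 passed the filter on low values only through the 4 posterior samples and were not tested once any of these was left out, so their calls in the other 10 alternatives say nothing of a dependence on single posterior samples. Of the 14 alternatives, MLLT3, HS3ST3A1 and CIDEA were called in 10, RY1 in 9, RCAN1, IFT80, IL23A and PASK in 8, IL1RL1, APCDD1, CPT1A and S100A2 in 7, TGFB3 in 6, KRT1, CPA4 and PPRC1 in 5, IL1A, LYZ, TAF1D, NUPR1 and ITPA in 4, and SRPX2 in 3. None of these genes changed sign.

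Among the other genes with the largest higher calls were secreted proteins, receptors and signals. Their adjusted p-values are those of the random-block fit, and none passed in the paired fit. SPP1, the secreted phosphoprotein osteopontin, read 289, 659.8, 139 and 772 units against 11.8, 16 and 21.6. No anterior sample reached 25 units, and the posterior level was at least 15.1-fold higher (adjusted p = 0.001201). TGFB3, a growth factor of the TGF-beta family, read 1706, 2597, 3349.9 and 703 units against 21.1, 149.9 and 212. The groups did not overlap, and the level was at least 19.6-fold higher (log2 difference 4.32 ± 0.76, adjusted p = 0.0351). SRPX2, a secreted sushi-repeat protein, read 708, 964, 1735 and 416 units against 16.8, 42.0 and 216 (at least 13.6-fold, adjusted p = 0.04636). Like TGFB3, it was highest in animal 4 and lowest in animal 5 among the posterior samples.

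IL1A, an alarm cytokine stored in keratinocytes, read 2515, 873, 733 and 1646 units in posterior LE against 8.5, 71.1 and 201 units in anterior LE. The lowest posterior sample was above the highest anterior one, and the level was at least 17.1-fold higher (log2 difference 4.33 ± 0.80, adjusted p = 0.04179). IL1RL1, the receptor for the alarm cytokine IL33, read 917, 425, 710.0 and 437 units against 15.5, 29.5 and 209, a difference of at least 13.4-fold (adjusted p = 0.02723). A second IL1RL1 probe set that was tested was dim and gave a log2 difference of -0.47 (adjusted p = 0.3797). IL23A, a cytokine subunit acting on T cells, was named after its values were seen. It read 169.5, 95.0, 156 and 175 units against 20.4, 33.5 and 54.7 (log2 difference 2.13, adjusted p = 0.01863).

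PLAC8, a small cysteine-rich protein, read 1289.8, 2334, 1595 and 1201 units against 9.90, 35.3 and 75.1 units. The groups were far apart, and the posterior level was at least 39.1-fold higher (log2 difference 5.65 ± 0.56, adjusted p = 0.001201). CPA4, a metallocarboxypeptidase, read 632, 130.2, 342 and 804 units against 6.36, 13.0 and 124. Its highest anterior sample, that of animal 5, came close to its lowest posterior one, and the adjusted p was 0.02958. SPMIP3, a protein of the inner wall of sperm microtubules, read 74.4 to 224 units in posterior and 5.76 to 12.3 units in anterior LE (adjusted p = 0.001055). MLLT3, a chromatin reader of the super elongation complex, read 360.3, 489, 127 and 182 units against 10.4, 17.1 and 49.8 (log2 difference 3.74, adjusted p = 0.01688).

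CIDEA, which enlarges lipid droplets, read 881, 233, 224 and 245 units against 20.6, 41.4 and 54.5. Posterior animal 1 was high, the other posterior samples lay close together, and the level was at least 8.27-fold higher (log2 difference 3.07 ± 0.43, adjusted p = 0.01399). CPT1A, which carries fatty acids into mitochondria for oxidation, read 178, 77.6, 70.2 and 184 units against 6.51, 18.5 and 26.8 (adjusted p = 0.02723). A second tested CPT1A probe set was dim and did not follow it, with a log2 difference of -0.36 (adjusted p = 0.6904). PASK, a nutrient-sensing kinase, read 123 to 252 units against 19.97 to 66.5 (adjusted p = 0.01732). CPT1A and PASK were named after their values were seen.

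For some genes the probe sets did not give the same answer. The brightest probe set of LPIN2, a phosphatidate phosphatase, read 2137 to 2707 units in posterior and 139.5 to 1582 units in anterior LE with a log2 difference of 2.01 (adjusted p = 0.1731). Another LPIN2 probe set read 403, 1180, 489 and 857 units against 21.7 to 58.3 and was called, with a log2 difference of 4.30 (adjusted p = 0.001041). FBXO32 was called by probe sets with log2 differences of 4.448 and 3.698 (adjusted p = 0.005011 and 0.02796). A brighter FBXO32 probe set was not called, at 569.0 to 1410.5 units against 47.88 to 517.9 (log2 difference 2.399, adjusted p = 0.09588). The lower calls of TAF1D, PPRC1, IFT80, RCAN1 and ITPA, described below, each rested on 1 of 2 tested probe sets. The dimmer probe sets of these genes had log2 differences of -0.15, -0.55, -0.64, -0.97 and -1.44. Their adjusted p-values were 0.8224, 0.67, 0.6311, 0.4594 and 0.1679. For CHRNA7, a nicotinic acetylcholine receptor subunit, 2 of 3 tested probe sets were called, but not the brightest one, whose log2 difference was 1.58 (adjusted p = 0.1819).

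**Figure D2:**
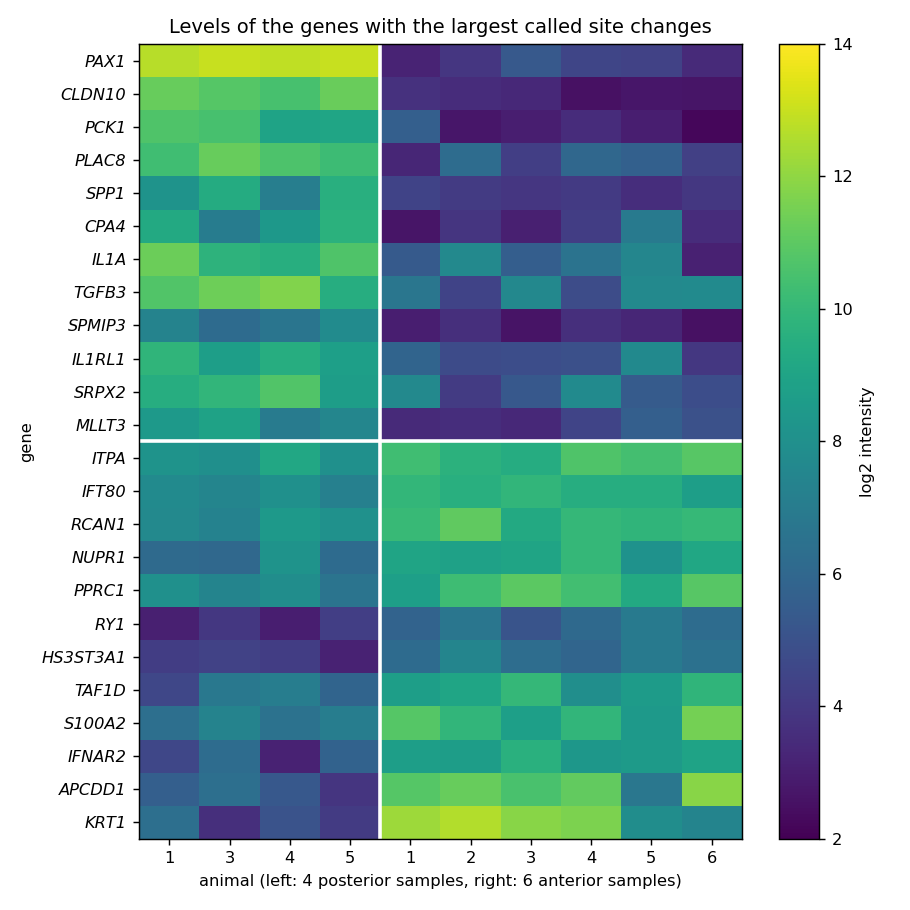
Log2 intensity, as colour, of the 12 genes with the largest higher and the 12 with the largest lower calls of the random-block fit (horizontal white line). Only genes called by their brightest probe set were ranked. The 4 posterior samples are at the left and the 6 anterior samples at the right. PAX1 is brightest in posterior LE at 6763 to 8148 units, and KRT1 and APCDD1 are dimmer in the anterior sample of animal 5 than in those of animals 1 to 4.

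Fewer named genes were lower in posterior LE. APCDD1, a membrane protein that inhibits Wnt signalling, read 48.8, 83.7, 39.1 and 14.2 units against 107, 2010.2 and 3682 units in anterior LE. The groups did not overlap, although the anterior sample of animal 5 was as low as 107 units, and the level was at least 29.8-fold lower (log2 difference -5.05 ± 0.86, adjusted p = 0.03059). S100A2, a calcium-binding protein of basal keratinocytes, read 82.8, 164, 92.9 and 136 units against 352, 953 and 2864 (8.32-fold lower, adjusted p = 0.04248). IFNAR2, a chain of the type I interferon receptor, read 23.1, 74.9, 8.87 and 54.5 units against 329, 417 and 781 (at least 11.2-fold lower, adjusted p = 0.0117).

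HS3ST3A1, which adds sulfate to heparan sulfate chains, was under 25 units in all 4 posterior samples and read 60.0, 84.3 and 178 units in anterior LE (adjusted p = 0.01585). RCAN1, an inhibitor of the phosphatase calcineurin, read 201, 159, 351 and 270.4 units against 621, 1050.1 and 2154 (4.56-fold lower, log2 difference -2.17 ± 0.36, adjusted p = 0.02723). NUPR1, a stress-induced nuclear protein, read 71.1, 66.0, 287 and 73.6 units against 277, 516 and 1034 (adjusted p = 0.04699). Posterior animal 4 overlapped the anterior samples for NUPR1, the one lower call with an overlap. PPRC1, a coactivator of mitochondrial gene expression, read 98.9 to 263 units against 435 to 2034 (6.03-fold lower, adjusted p = 0.04248).

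TAF1D, a subunit of the RNA polymerase I initiation complex, read 23.7 to 137 units against 244 to 1015 (log2 difference -2.92, adjusted p = 0.04278). IFT80, a protein of intraflagellar transport, had a log2 difference of -1.92 (adjusted p = 0.02075), and ITPA, which clears inosine triphosphate, one of -1.90 (adjusted p = 0.04757). RY1, as the array annotation names it, read 8.12 to 18.7 units against 34.4 to 121 (adjusted p = 0.02075). A probe set without a gene name, MmuSTS.2055.1.S1_at, had the lowest value of all at -6.19 (adjusted p = 0.009017): posterior LE read 342, 27.4, 9.96 and 11.6 units and anterior LE 1840 to 2784 units.

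Gene lists were then read by their counts in the random-block fit beside those over all tested probe sets, of which 0.593% were called higher and 0.0919% lower. Their median log2 difference was 0.04. In the paired fit the median over all tested probe sets was 0.09, and it moved to -0.25 with the arrays centred and to -0.10 after quantile normalization. Of 5 tested keratins of dry, orthokeratinized epithelium, KRT1 alone was called, and the median was -2.50. Not all of them were lower: KRT80 ran the other way, with a log2 difference of 1.09 (adjusted p = 0.4579). KRT9, a keratin of thickened skin, read 743, 25.9, 121 and 754 units against 609, 3937 and 6496, and the groups overlapped (log2 difference -3.67, adjusted p = 0.124). KRT10, the partner of KRT1, read 1284, 1938, 2243 and 1139 units against 2000.5, 3959 and 6601 (log2 difference -1.24, adjusted p = 0.1784), and a second, dimmer KRT10 probe set gave 0.66 (adjusted p = 0.8052). KRT76, a keratin of the palate, read 345, 13.1, 6.92 and 9.24 units, and the anterior samples ran from 7.47 to 5463 units (adjusted p = 0.5244). The paired median of these dry keratins was -3.19, and it was -3.53 and -3.38 under the other scalings.

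None of the 5 tested keratins of moist epithelium was called, and their median was 0.02, by the brightest probe set of each gene. For KRT3, a keratin of moist stratified surfaces, the probe sets did not run alike. The brightest read 4893.5 to 7648.7 units in posterior and 6368 to 10438.5 units in anterior LE, and another read 349.4, 1132.1, 307.5 and 948.8 units against an anterior median of 4638.4 (log2 difference -2.82, adjusted p = 0.07054). The dimmest KRT3 probe set tested gave -1.83 (adjusted p = 0.2782). Among 18 tested cornified envelope genes none was called. In all posterior samples 3 were below the anterior range, CSTA, KRTDAP and LY6D, beside 1.99% of all tested probe sets. CSTA, the protease inhibitor cystatin A, read 11827 to 13018 units against 13092 to 14503, a ratio of 1.10. KRTDAP, a keratinocyte differentiation peptide, had a ratio of 1.16. LY6D, a surface protein of squamous cells, read 1363, 740.5, 803 and 478 units against 1537, 3031 and 3936 (log2 difference -1.70, adjusted p = 0.07054). The gaps of CSTA and KRTDAP had adjusted p-values of 0.7533 and 0.6104.

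Of 17 tested claudin and tight junction genes CLDN10 was called, and CLDN23 was above the anterior range at 3082 to 3618 units against 1363 to 2872 (adjusted p = 0.3508). PAX1 was the call among 28 tested regional transcription factors. MEIS1, a homeobox partner of HOX proteins, read 1239, 1231, 1076 and 892 units against 265, 479 and 859.7 without being called (log2 difference 1.14, adjusted p = 0.1481). A dimmer MEIS1 probe set overlapped, with a log2 difference of 0.28 (adjusted p = 0.8078). None of the 7 tested HOX genes was called. Among 26 tested epidermal differentiation factors, CEBPA, which promotes differentiation, was below the anterior range at 1904 to 3002 units against 3419 to 5284 (log2 difference -0.89, adjusted p = 0.1363). Dimmer CEBPA probe sets overlapped between the sites, at -0.30 and -0.57 (adjusted p = 0.7817 and 0.5191). OVOL1, a repressor of proliferation, was above it at 809 to 1212 units against 152 to 706 (adjusted p = 0.1765). A dimmer OVOL1 probe set overlapped, at 134.2 to 314.0 units against 35.12 to 138.1 (log2 difference 1.407, adjusted p = 0.1724).

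TGFB3 was the one call among 30 tested Wnt, hedgehog, BMP and FGF genes, whose median was 0.03. FGFR2, a receptor for fibroblast growth factors, read 12.1, 68.5, 78.1 and 86.3 units against 176, 252 and 375 (log2 difference -2.34, adjusted p = 0.08128). Dimmer tested FGFR2 probe sets overlapped, at -0.88 and -0.27 (adjusted p = 0.4021 and 0.7174). PCK1 was the one call among 28 genes of gluconeogenesis, glycolysis and glycogen, with a median of 0.22. PFKP, a phosphofructokinase, read 1624, 1886, 1639 and 1448 units against 412, 665 and 1140.2 (log2 difference 1.37, adjusted p = 0.07855). ENO2, an enolase, read 1939 to 3095 units against 453 to 1768, also with no overlap (adjusted p = 0.1809). A dimmer ENO2 probe set did overlap, at 530.7 to 810.4 units against 11.44 to 1588.7 (adjusted p = 0.6407). CIDEA was the one call among 43 lipid genes, by the brightest probe set of each gene.

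None of 43 tested serine proteases and inhibitors was called. KLK6, a kallikrein protease, read 3749, 3698, 6529 and 2706 units against 37.4, 702 and 2202 (log2 difference 3.14, adjusted p = 0.178). TMPRSS2, a membrane-bound serine protease, read 1049.6 to 1657 units against 9.12 to 968 (adjusted p = 0.1845). Both were above the anterior range in every posterior sample, but their anterior values were spread widely. A dimmer TMPRSS2 probe set overlapped, at 41.36 to 325.9 units against 6.453 to 71.19 (log2 difference 2.514, adjusted p = 0.1765). Another tested one did not overlap, at 36.3 to 118.0 units against 19.54 to 29.05 (log2 difference 1.341, adjusted p = 0.1176). ALDH1A3, an enzyme of retinoic acid synthesis, read 3308, 2393, 2591 and 3833 units against 61.0, 672 and 954 (log2 difference 2.60, adjusted p = 0.117), and none of 18 tested retinoid genes was called.

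Of 32 tested antimicrobial and alarm genes, IL1A and LYZ were called higher and S100A2 lower, beside 0.593% and 0.0919% of all tested probe sets. LYZ, the antibacterial enzyme lysozyme, read 2043, 2131, 2424 and 3637 units against 149, 549.8 and 884 units, with no overlap (5.43-fold, log2 difference 2.43 ± 0.44, adjusted p = 0.03956). None of 28 tested interferon-induced genes was called. Among 23 tested transport genes none was called. By the brightest probe set of each, the 3 subunits of the epithelial sodium channel, which takes up salt across epithelia, were above the anterior range together. Over all tested probe sets, 3.34% were above it. SCNN1A read 4090.1 to 4633 units against 1887 to 4008, SCNN1B 372 to 732 units against 108 to 346, and SCNN1G 128 to 312 units against 33.9 to 116. Their log2 differences were 0.54, 0.88 and 1.75 with adjusted p-values of 0.3223, 0.2952 and 0.0843, and they were singled out after their values were seen. Dimmer SCNN1A probe sets overlapped between the sites, with log2 differences of -0.11 and -0.055 (adjusted p = 0.8791 and 0.9564).

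**Figure D3:**
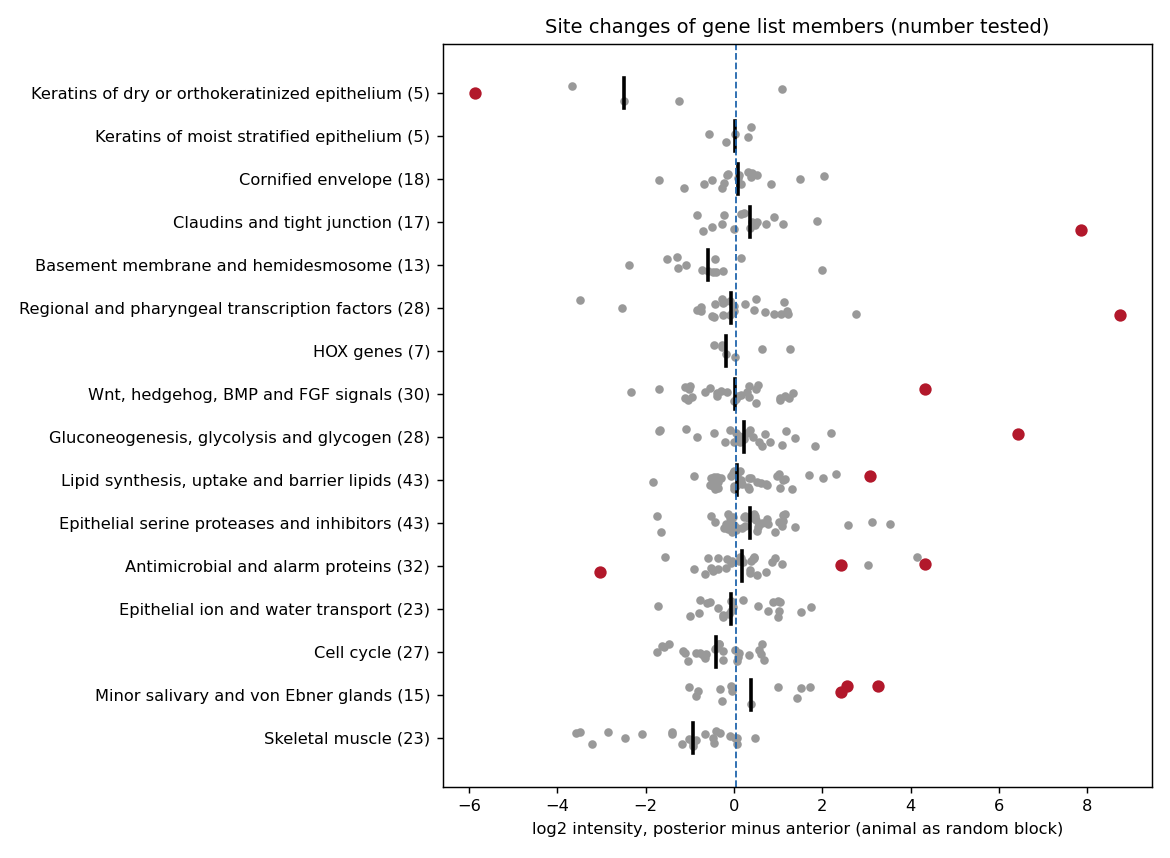
Log2 difference, posterior minus anterior in the random-block fit, of each tested member of 16 gene lists, with called members as large red points, the median of a list as a black bar, the number tested in brackets and the median of all tested probe sets as a dashed blue line at 0.04. The median of the dry keratins lies at -2.50 and that of the moist keratins at 0.02.

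All 6 animals also gave FG taste buds, and animals 1, 3, 4 and 5 gave CV taste buds, so the site difference could be measured in taste buds too. The fit of all 20 samples called 99 of 26176 probe sets higher in CV than in FG taste buds (0.378%) and 129 lower (0.493%). The difference between the site change in LE and that in taste buds was itself called for 228 probe sets (0.871%). PAX1 was higher at the CV site in both tissues. In CV taste buds it averaged 1818 ± 589.8 (SD, n = 4) units and in FG taste buds 11.4 ± 2.91 (SD, n = 6) units, with an adjusted p of 2.36e-07. Its change in LE exceeded that in taste buds by a log2 value of 1.49 ± 0.50 (adjusted p = 0.1789), short of the threshold. CV taste buds of 4 other animals were captured as upper and lower parts, and it read 1530 to 2202 units in the upper and 1524 to 1996 units in the lower parts.

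CLDN10 and PCK1 differed by site in LE and were not called in taste buds. CLDN10 averaged 62.4 ± 73.7 (SD, n = 4) units in CV and 33.1 ± 34.3 (SD, n = 6) units in FG taste buds, and the change in LE exceeded that in taste buds by 7.21 ± 1.02 on the log2 scale (adjusted p = 0.00507). PCK1 averaged 14 and 27.2 units in CV and FG taste buds, with a tissue difference of 7.04 ± 1.00 (adjusted p = 0.005108). The CV taste bud parts of the other animals, processed separately, held more PCK1 than these whole CV buds. It read 25.7 to 159.7 units in the upper and 19.2 to 211.2 units in the lower parts. CLDN10 read 13.1 to 159.5 units in the upper and 5.96 to 202.1 units in the lower parts. PLAC8 was high in taste buds at both sites, at 1399 and 1627 units, so anterior LE was the one tissue of the 4 in which it was low (tissue difference 5.76 ± 0.55, adjusted p = 3.34e-04). MLLT3 had the same pattern, at 436 and 519 units in taste buds (adjusted p of the difference 0.0383). APCDD1 was at 972 and 1128 units in CV and FG taste buds and low in posterior LE (tissue difference -4.97, adjusted p = 0.01717).

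HS3ST3A1 changed in opposite directions. In taste buds it was higher at the CV site, at 407 against 56.6 units (adjusted p = 0.03042), and in LE it was lower at that site, with a tissue difference of -6.13 ± 0.90 (adjusted p = 0.006157). RCAN1 was lower at the CV site in both tissues, at 252 against 911 units in taste buds (adjusted p = 0.009982), and the tissue difference was -0.23 (adjusted p = 0.8358). KRT1 averaged 29.9 units in CV and 199.5 units in FG taste buds (adjusted p = 0.07108). Of the 129 probe sets called higher in posterior LE, 69 had a taste bud change of the same sign, beside 47.7% of all tested probe sets with a change above 0, and their median change in taste buds was 0.04. There were 3 called in the same direction in taste buds, PAX1, SMR3A and a probe set without a gene name, MmugDNA.7211.1.S1_at, which read 312.5 to 1941 units in posterior and 8.00 to 43.7 units in anterior LE. Of the 20 called lower, 11 had a taste bud change of the same sign, and 2 were called in that direction, RCAN1 and MmuSTS.2055.1.S1_at. The latter averaged 15.2 units in CV and 1024.7 units in FG taste buds (log2 difference -6.07, adjusted p = 3.48e-04). HS3ST3A1 was the 1 called in the opposite direction.

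**Figure D4:**
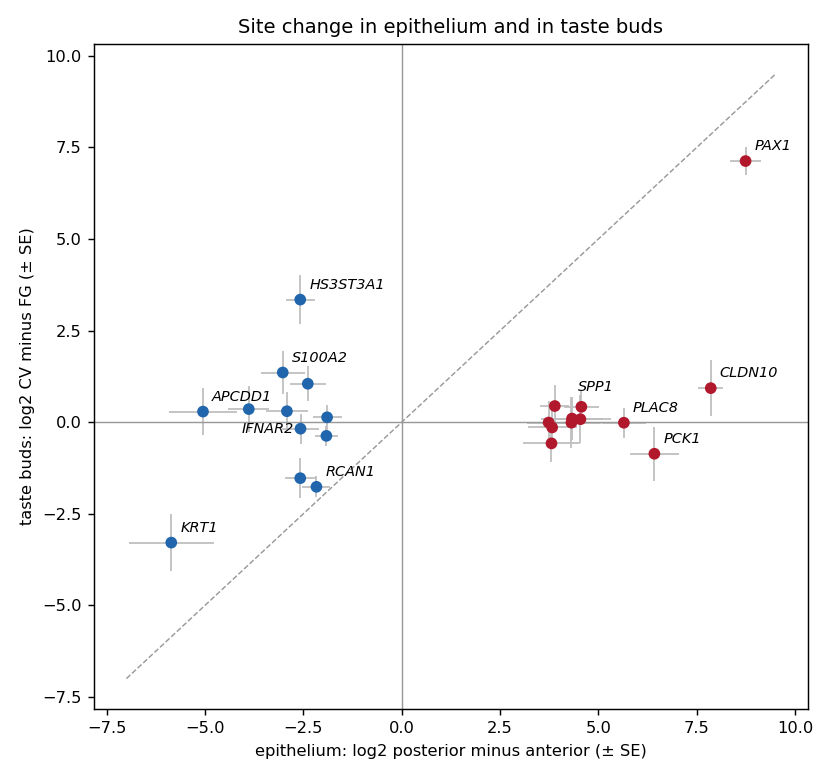
Site change in taste buds (vertical axis, log2 CV minus FG, 20-sample fit) against that in LE (horizontal axis, log2 posterior minus anterior, random-block fit) for the 24 genes of the largest calls, with SE bars and a dashed line of equal change. PAX1 lies near the line, CLDN10, PCK1 and PLAC8 lie near 0 in taste buds, and HS3ST3A1 is lower in posterior LE and higher in CV taste buds.

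Other cell types were read from their marker lists in the same 10 samples. The gland list had 25 genes on the array, of which 7 were under 25 units in all 10 samples, and its summed level was 3884 to 7730 units in posterior and 776 to 2760 units in anterior LE. LCN1, the lipocalin that von Ebner glands secrete, read 470.4, 72.8, 42.6 and 139 units against 6.91, 13.2 and 19.9 (at least 4.78-fold higher, adjusted p = 0.04179). SMR3A, a salivary peptide precursor, read 71.5, 155, 28.5 and 122 units against 7.03, 12.6 and 19.9 (adjusted p = 0.04223), and CV taste buds held far more of it, 803 against 20.8 units (adjusted p = 0.03376). Both genes were called in 1 of the 10 alternatives in which they were tested. LYZ, described above, is on the gland list too and on the macrophage list. LCN1, SMR3A and LYZ were the 3 calls among 15 tested gland genes, beside 0.593% of all tested probe sets. LCN1 and SMR3A passed the filter on low values only through the 4 posterior samples and so had to differ, which leaves LYZ as the one call that the filter did not fix. The part of gland RNA in the calls of posterior LE was not tested.

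The list of Langerhans cells and macrophages summed to 6534 to 7631 units in posterior and 3056 to 4725 units in anterior LE, and LYZ was its one call among 14 tested genes. The taste receptor cell list summed to 5877 to 7018 units against 3455 to 5497 units, with 9 of its 26 genes under 25 units in all samples, GNAT3 among them, and with no call among 12 tested. SCNN1A, whose levels are given above, is a member of that list and made up most of each posterior sum. The taste cell sums without SCNN1A were not compared. The sums of the gland, macrophage and taste cell lists did not overlap between the sites, and their part in the changes above was not tested. LYZ is counted in both the gland and the macrophage sum, so these sums are not independent. It read 2043 to 3637 units in posterior and 149 to 884 units in anterior LE, a large part of the posterior macrophage sums. LYZ read 2424 units in posterior LE of animal 4 and 537.3 units in anterior LE of animal 5. The macrophage sums of these samples were 6534 and 4725 units, and their gland sums 3884 and 2760 units. With LYZ taken out, both sums are lower in this posterior sample than in this anterior one. The macrophage and gland lists thus separate the sites only with LYZ included. The list of immediate early and heat shock genes, which respond to stress and to handling of tissue, did not overlap in sum either, at 33603 to 38048 units in posterior and 29555 to 32068 units in anterior LE. None of its 27 tested genes was called, and its median log2 difference was 0.37. In every posterior sample 4 were above and 1 was below the anterior range, beside 3.34% and 1.99% of all tested probe sets. ZFP36, an RNA-binding protein that shortens cytokine messages, had the highest value among them at 1.90 (adjusted p = 0.07089). The list of ciliated and mucous surface cells overlapped, at 9830 to 16030 units in posterior and 3881 to 11436 units in anterior LE, with no call among 12 tested genes. The part of both lists in the changes was not tested.

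The skeletal muscle list had 23 tested genes and no call, with a median log2 difference of -0.92. Its sum was 1838 to 3771 units in posterior LE and 2276 to 3880 units in the anterior samples other than that of animal 3. In the anterior sample of animal 3, TPM2 read 6109 units, MYL1 4226, MB 3479, MYBPC1 3352 and MYH2 1938, which are genes of the sarcomere and of oxygen storage in muscle. No muscle list gene was among the 149 calls. The fibroblast list overlapped, at 6941 to 8209 units in posterior and 6815 to 14357 units in anterior LE, and had no call among 13 tested genes.

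**Figure D5:**
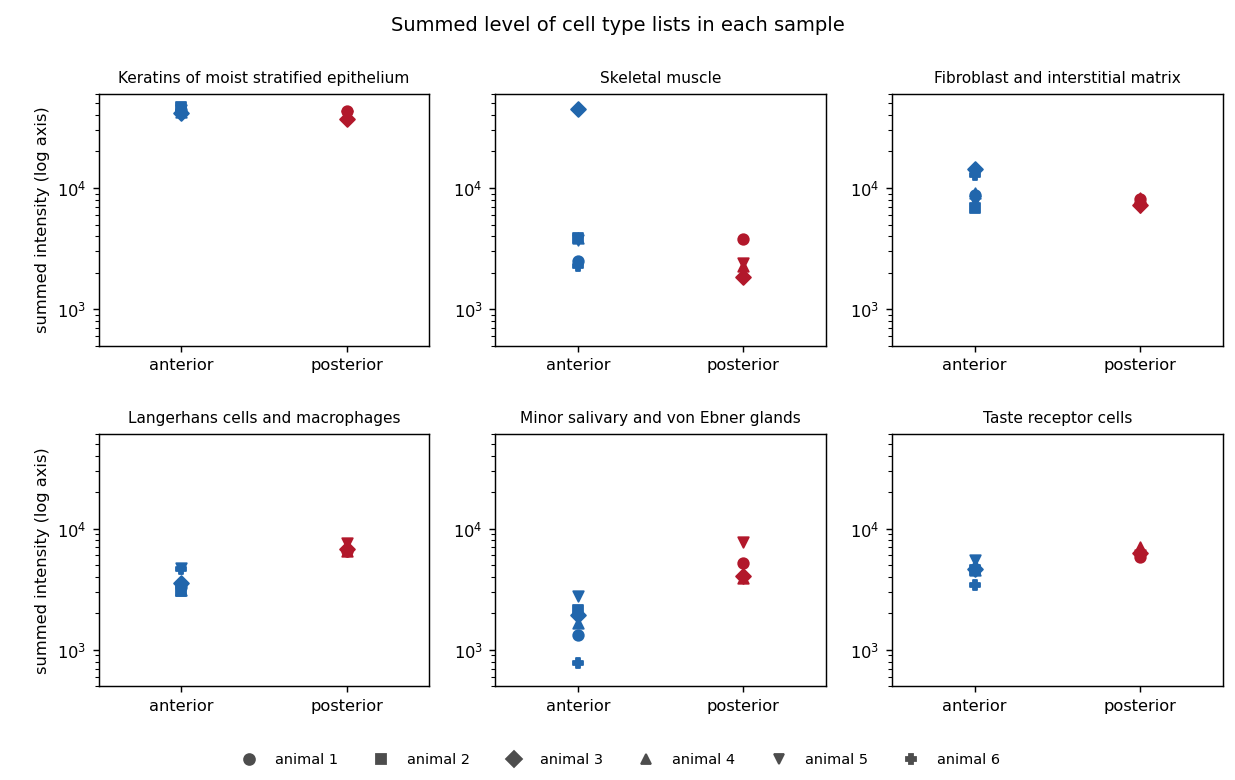
Summed intensity of 6 marker lists in each LE sample on a log axis, anterior in blue and posterior in red, with 1 symbol for each animal. The anterior sample of animal 3 stands alone in the muscle panel at 45211 units, and the gland panel runs from 776 to 2760 units in anterior and from 3884 to 7730 units in posterior LE.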

How the data were processed

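The 10 LE samples and 10 taste bud samples were each a laser-captured pool of multiple sections of 1 animal. The authors normalized the Affymetrix rhesus macaque arrays by GC-RMA; they deposited 1 intensity per array for each of 52024 probe sets, on a linear scale without a physical unit. Scanner files were not used here. The number of arrays limits the precision. Gene names came from the platform annotation (24956 probe sets with 1 symbol, 361 with several, 26707 not listed) and from the study's table of names (1943); 25729 were named by either. The probe set with the highest mean log2 level stood for a gene.

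The test on log2 intensity took the 21761 probe sets that reached 25 units in 4 or more of the 10 LE samples and used limma 3.58.1 in R 4.3.3. The animal was a fixed block in the main analysis, with 3 residual degrees of freedom, so animals 2 and 6 added nothing to the difference. A random block (duplicateCorrelation, consensus correlation 0.08) was an alternative. Adjusted p-values are Benjamini-Hochberg values over every probe set tested, called at 0.05 or less. A fit of 20 samples in 4 groups, with the animal as a fixed block, gave the site change in taste buds and the tissue difference; it shares its LE samples with the fits of 10. The pairing comes from the animal in the labels: the deviations of the 2 sites of an animal correlated at 0.06, 0.06, 0.19 and 0.07, and those of different animals at -0.02 on average. Folds used values under 25 raised to 25.

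Named genes were PAX1, CLDN10, PCK1 and KRT1, called list members, and the 12 largest calls in each direction among eligible genes. Eligible genes carried a single symbol, were called by their brightest probe set, were not muscle genes and moved the same way in all 4 pairs. As the paired analysis called so few, the largest calls of the random block were named after values were seen, as were genes described without a call. The contrast, the 4 marker genes and all 38 gene lists were chosen with earlier results of these data known. Alternatives were no block, filters, scalings, the methods' t-test (at least 5-fold and unadjusted p of at most 0.05: 286 probe sets higher, 33 lower) and leaving out animals or samples; those of the random block, other than the muscle covariate and leaving out anterior animal 3, were chosen after seeing the data. The scripts were tested on simulated data. No sequences are printed because no sequence file was used here. Figures were drawn with matplotlib 3.10.9 in Python 3.11.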

Additional observations from a re-analysis of the deposited data

Results flagged for a closer look

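Of 116 groups checked over 58 genes, 13 held a sample far from the others, where chance alone would mark about 1 in 20. These were the anterior sample of animal 5 for CPA4 (124.1 units), APCDD1 (106.7) and BPIFB1 (10.24), of animal 6 for ALDH1A3 (60.98) and CLDN23 (1363.1) and of animal 3 for ENO2 (452.9). The posterior sample of animal 1 was far from the others for CIDEA (880.6), KRT76 (344.9), SCNN1B (732.5) and FGFR2 (12.14), that of animal 4 for NUPR1 (286.9) and ITPA (587.5), and that of animal 5 for HS3ST3A1 (8.83).

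For 17 genes the site change in LE differed from that in taste buds by the test of the difference itself in the 20-sample limma fit. Over all 26176 probe sets tested, 228 (0.871%) did so. Genes named for a large change in these same LE samples are favoured in this test, so the 17 are no separate support for their site changes. The change in LE exceeded that in taste buds on the log2 scale by 7.21 for CLDN10, 7.04 for PCK1, 5.76 for PLAC8, 4.37 for CPA4, 4.18 for SPP1, 4.09 for IL1A, 4.04 for SRPX2, 3.84 for MLLT3, 3.68 for IL1RL1, 3.58 for IL23A, 3.22 for CPT1A and 2.79 for CIDEA. It was below that in taste buds for HS3ST3A1 (-6.13), APCDD1 (-4.97), IFNAR2 (-4.26), S100A2 (-4.04) and NUPR1 (-3.34). Both tissues came from the same animals.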

How the results depend on the processing

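The paired analysis, with the animal as a replicate block, called 3 probe sets higher and 0 lower. It called 4 and 0 with no filter, 3 and 0 at 50 units or more, 2 and 0 with low values raised to 25, 6 and 0 with arrays centred, 3 and 0 after quantile normalization, and 0 and 0 with the methods' t-test or without any animal. Without the block it called 80 higher and 10 lower, with the random block 129 and 20, and in the 20-sample fit 254 and 77. The random-block counts became 43 and 8 with the muscle covariate, 36 and 14 centred, 80 and 34 after quantile normalization, 182 and 33 with low values raised, and 12 to 188 and 1 to 43 on leaving out a sample. PAX1 kept its size but lost its call with the t-test (8.53, adjusted p = 0.2025) and without animal 1, 4 or 5 (8.19 to 8.59); CLDN10 lost its call with the t-test (7.86, adjusted p = 0.2025). Without animal 3 the PAX1 probe set, and without any animal the CLDN10 probe set, fell under the filter. PCK1 passed without the block (6.46), with the random block (6.42), in the 20-sample fit (6.17) and centred (5.68); without animal 3, 4 or 5 it was 5.53 to 6.21, and without animal 1 it fell under the filter. KRT1 passed with the random block (-5.86) and in the 20-sample fit (-6.39). Within the random block, KRT1 missed with the muscle covariate (-5.14), centred (-6.08) and in 7 of 10 leave-outs (-6.45 to -5.44). The site change in taste buds was called for 228 probe sets, for 331 with no replicate block and for 45 to 113 on leaving out an animal; the tissue difference was called for 228, 276 with no block and 12 to 99. Over the 58 genes described with a change, no value changed sign: 1246 combinations of gene and setting kept their side of the threshold, 188 missed it and 79 passed it newly. The cause of these changes was not tested. Few arrays and signals under 25 units limit the dim side of each comparison.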

Other observations

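Several genes outside the calls were above or below the anterior range in all 4 posterior samples, and they were singled out after their values were seen. Over all tested probe sets, 3.34% were above and 1.99% were below that range. MT2A, a metallothionein that binds zinc and copper, read 7.37, 267, 25.6 and 444 units in posterior LE against 527, 1272 and 2403 units in anterior LE (log2 difference -4.11, adjusted p = 0.1023, limma with the animal as a random block). S100A6, a calcium-binding protein, read 646, 609, 386 and 585 units against 791, 1644 and 3542 (log2 difference -1.55, adjusted p = 0.1599). A dimmer S100A6 probe set overlapped, at 117.1 to 226.6 units against 190.8 to 1094.7 (log2 difference -1.465, adjusted p = 0.2016). AQP1, a water channel, read 54.3 to 84.8 units against 88.3 to 491 (adjusted p = 0.1309). PMP22, a membrane protein of Schwann cells and of epithelia, read 1355, 1215, 677 and 1870.0 units against 221, 551 and 669 (log2 difference 1.47, adjusted p = 0.1445). Dimmer PMP22 probe sets overlapped between the sites, at -0.67 and 1.27 (adjusted p = 0.7908 and 0.2147). None of these values passed the test, and no explanation was tested.

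MUC1, a membrane mucin, read 2465, 6046, 4916 and 5368 units in posterior LE against 178, 984 and 4033 units in anterior LE, and the groups overlapped (log2 difference 2.31, adjusted p = 0.1906). Another MUC1 probe set did not overlap, at 1182.8 to 4522.3 units against 17.84 to 706.0. Its log2 difference in the random-block fit was 4.285 (adjusted p = 0.1067). The remaining tested ones gave 3.735 and 1.778, with adjusted p-values of 0.1434 and 0.2162. BPIFB1, a secreted protein of airway and gland surfaces, read 98.5, 43.2, 43.3 and 80.6 units against 10.2, 24.4 and 30.4 with no overlap (adjusted p = 0.1036).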
